A study of Mus musculus with 8 samples.

Results

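Fibroblasts that carried redox-insensitive Stat3 were compared with fibroblasts that carried WT-Stat3 while both were exposed to hydrogen peroxide. The comparison covered 4 of the 8 RNA-sequencing libraries of the study, 2 of C3S cells and 2 of WT cells, all after 2 h in 100 µM H2O2. Genes entered when their mean expected count reached 10 in at least 1 of these 2 groups, which held for 13455 of the 19041 rows of the count table. Counts are given as normalised counts, that is, expected counts divided by a size factor per library, and a gene was called different at an adjusted p under 0.05 (edgeR's quasi-likelihood test) with at least a 2-fold change.

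The cells were immortalised murine embryonic fibroblasts from Stat3 fl/fl embryos in which retroviral Cre had deleted the endogenous gene, so that every library came from a Stat3-/- background to which WT-Stat3 or Stat3-C3S had been returned. The basal libraries of the same lines, 2 per line, had received no H2O2. The lines were polyclonal, sorted for Thy1.1 and then for GFP, and were used at passages 15 to 20. There was 1 line per construct, so the Stat3 form cannot be told apart from any other property in which these lines differed, and p-values measure the spread between libraries of 1 line. The study calls them biological replicates, while the labels do not say whether they were separate cultures.

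Stat3 is a transcription factor that cytokines of the gp130 family activate through Jak kinases. After phosphorylation on tyrosine it dimerises, enters the nucleus and binds palindromic elements, and Socs3 is its best known feedback target. Peroxide can oxidise cysteines of Stat3, with peroxiredoxin passing on the oxidation, and this reduces its binding to DNA. Fibroblasts meet peroxide with several other programmes, among them the Nrf2 and Atf4 stress responses, the immediate early genes and the heat shock genes.

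The libraries held 17050016 to 22260814 counts, a depth at which most named genes had over 100 counts in their higher group and a few under 50. Over log2 normalised counts, the H2O2 libraries of the same line correlated at 0.990 to 0.993 and those of different lines at 0.927 to 0.929. Stat3 itself, at chr11:100885098-100939540 of GRCm38, was counted in every library because both lines re-expressed it. It reached 7527 and 7425 normalised counts in the WT libraries and 4650 and 4788 in the C3S libraries. The lower values were all C3S, but the difference of -0.66 ± 0.036 (log2, SE, adjusted p = 1.7e-22) was under 2-fold, and before peroxide it was -0.76. The table does not separate the retroviral transcript from the endogenous one.

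After peroxide, 2491 genes were called, 18.5% of those tested. C3S cells were higher for 1053 of them (7.83%) and lower for 1438 (10.7%). Of the calls of at least 16-fold, 155 were lower and 60 higher. By the adjusted p alone, without the 2-fold limit, 8707 genes (64.7%) differed, 4392 higher (32.6%) and 4315 lower (32.1%), and the median over all genes was -0.02 (log2). Most of these differences were already there before peroxide. The basal libraries, which share no library with the comparison after H2O2, gave 2091 calls among 13538 genes (15.4%), 822 higher (6.07%) and 1269 lower (9.37%). By the adjusted p alone 7744 basal differences passed (57.2%), 3859 higher (28.5%) and 3885 lower (28.7%). In all, 1693 genes were called in the same direction in both conditions. These were 68.0% of the calls after H2O2 and 82.8% of the 2045 basal calls that were tested again. Only 6 genes were called in opposite directions.

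Of the calls that were new after H2O2, 379 were higher and 413 lower. A call in one condition and not in the other does not show a difference between them, and the interaction, which tests whether the line difference changed with peroxide, passed the same limits for 190 of 13538 genes (1.4%). It was positive for 135 (0.997%) and negative for 55 (0.406%), and by the adjusted p alone for 1243 (9.18%) and 454 (3.35%), 12.5% together. Among the new calls it passed for 35 of the 379 higher and 21 of the 413 lower genes.

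**Figure D1:**
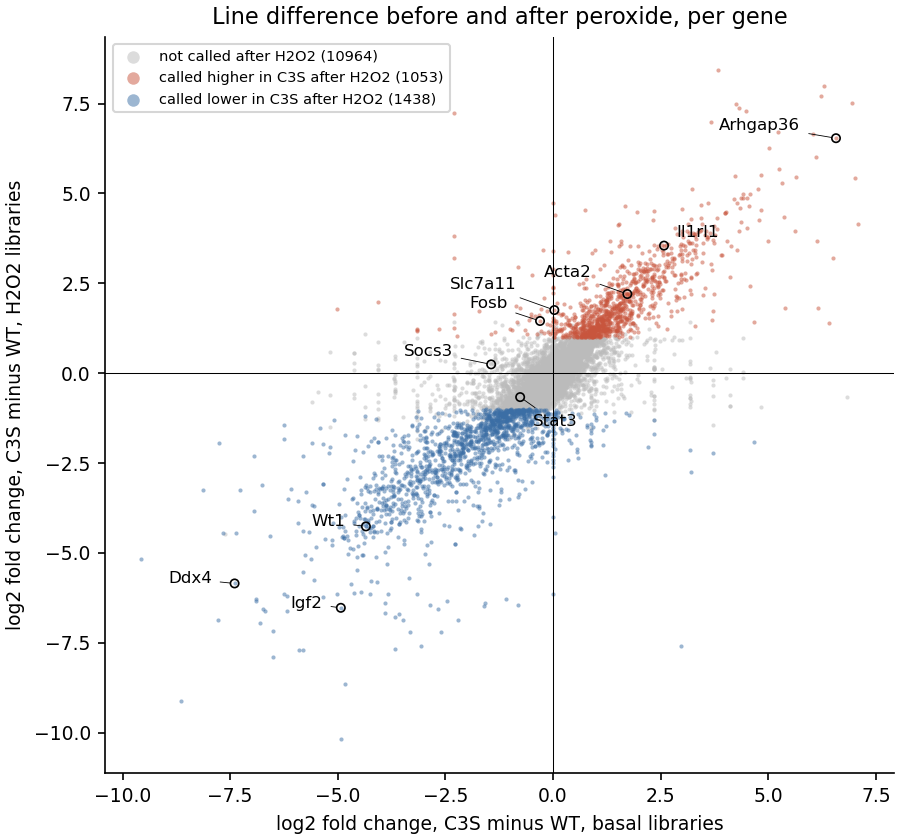
Each point is 1 gene, with the C3S minus WT difference in the basal libraries on the x axis and in the H2O2 libraries on the y axis, both as log2 fold change. Most of the 1053 genes called higher (red) and 1438 called lower (blue) lie near the diagonal; Slc7a11 and Fosb lie near 0 on the x axis only, and values of genes with no counts in a group depend on the prior count of the fit.

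The genes with the largest excess in C3S cells had low counts in WT cells. Arhgap36, an activator of hedgehog signalling, had 321 and 304 normalised counts in the C3S libraries and 3.97 and 2.5 in the WT libraries. Coch, a secreted matrix protein of the inner ear, had 524 and 488 against 3.97 and 9.16. Tbx20, a T-box factor of the heart, had 1679 and 1681 against 54.2 and 60.1. The log2 differences of these 3 were 6.54 ± 0.26, 6.26 ± 0.21 and 4.88 ± 0.093 (SE). The other 5 of the 8 most raised were the GABA receptor subunit Gabrb2 (6.01), the synapse organiser Cbln1 (5.68), the NMDA receptor subunit Grin3a (4.98), Pgbd5 (5.46) and Ralyl (5.12). All 8 were called before peroxide too, where Arhgap36 differed by 6.57, Gabrb2 by 6.10 and Cbln1 by 5.25.

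The genes most reduced in C3S cells had low counts there. Xlr3b, an X-linked gene with near-identical neighbours between which reads may have been split, had 123 and 149 normalised counts in the WT libraries and 0 in both C3S libraries. Against a floor of 3 counts over the C3S group it was at least 82.2-fold lower. Clca1, of the chloride channel regulator family, had 148 and 127 in WT and 1 count in all in C3S, a ratio of 250 (95% counting interval 44.6 to 9910; such intervals cover counting error only), and its close relative Clca6 had 164 and 191 against 1.08 and 5.56. Igf2, the fetal insulin-like growth factor, had 815 and 727 in WT and 4.37 and 12.2 in C3S, a log2 difference of -6.53 ± 0.19. Elmo1, a partner of the Rac exchange factor Dock1, had 206 and 183 against 4.91 and 1.55, and Adamts3, a procollagen protease, 344 and 346 against 2.18 and 13.3. Absence of overlap between the groups was a condition for picking these genes.

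Among the most abundant of the called genes in each direction the changes were smaller. They were picked among calls, so a difference beyond the replicate spread was set by the choice. Il1rl1, the receptor for interleukin-33, stood out with 27456 and 26945 normalised counts in C3S against 2286 and 2358 in WT (3.55 ± 0.037, log2). Col1a2, a chain of type I collagen, had 28690 and 28833 against 13112 and 12549, and the endoplasmic reticulum chaperone Hsp90b1 52364 and 53856 against 24193 and 23888. On the other side, Fn1, encoding fibronectin, had 43965 and 45712 in C3S against 103935 and 104223 in WT, and the metalloprotease inhibitor Timp3 9320 and 9587 against 29110 and 29505. Cyp1b1, a cytochrome P450 of xenobiotic and sterol metabolism, showed the largest change of this abundant set, with 985 and 932 against 11756 and 11813 (-3.62 ± 0.043). Mical2, an actin-oxidising enzyme, differed by -1.25 ± 0.035.

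Genes of body position divided the lines. Of 36 tested Hox genes, the homeobox factors that encode position along the body and limb axes, 26 were lower in C3S cells and 4 higher, with a median of -3.10 (log2) beside -0.02 for all genes, and the 83.3% called was the highest share among the lists examined with 10 or more tested genes. Genes of the Hoxc cluster were low in C3S: Hoxc10 had 599 and 574 normalised counts in WT and 10.9 and 24.6 in C3S, Hoxc13 259.6 and 252 against 5.46 and 10.0, and Hoxc9 123 and 127 against 2.18 and 2.23. The 4 Hox genes that were higher were all of the posterior end of the Hoxa and Hoxd clusters. Hoxd13, a gene of the distal limb, had 2446 and 2479 in C3S and 181 and 204 in WT, and Hoxd12, Hoxa13 and Hoxa11 differed by 3.54, 2.76 and 1.40. These 4 were named after their values were seen.

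Other limb and mesenchyme factors went mostly the opposite way. Of 78 tested, 36 were higher in C3S and 12 lower (61.5%, beside 18.5% of all genes), with a median of 0.73. Tshz2, a zinc finger factor, had 1230 and 1380 against 46.1 and 44.1, and Lhx2, a factor of limb outgrowth, 650.0 and 779 against 46.8 and 43.3. The largest loss of the list was Gata4, a factor of heart and lateral mesoderm, with 60.1 and 76.7 in C3S and 1341 and 1327 in WT (-4.29 ± 0.10). Among secreted regulators, the R-spondin Rspo2 (3.92), the Wnt antagonist Dkk2 (4.48), the BMP antagonist Nog (3.62) and the activin antagonist Fst (2.53) were higher, and Igf1 (-3.36) and Fgf13 (-5.17) lower. Fgf7, a growth factor for epithelium, had 1352 and 1379 in C3S against 272 and 307 in WT, and Pdgfd, a ligand of Pdgfrb, 249 and 218 against 14.3 and 17.5. Over the Notch, Wnt and hedgehog list 12 of 57 were higher and 17 lower (50.9% called). Over growth factors and receptors 13 of 51 were higher and 15 lower (54.9%). Over TGF-beta and BMP genes 7 of 46 were higher and 6 lower (28.3%), beside 18.5% of all genes. Of 53 axon guidance genes 8 were higher, with Unc5c, a netrin receptor, at 3.90, and 14 lower, with the ephrin receptor Epha4 at -4.31. The share called in that list was 41.5%. In the basal libraries the median was -2.70 for the Hox genes and 0.19 for the limb factors.

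Markers of several other cell types also differed between the lines, with directions that varied by cell type. In bulk RNA, fewer cells of a type and less of its RNA per cell cannot be told apart. The summed level of 14 fibroblast markers was close in the H2O2 libraries, 250600 to 261400 normalised counts, but its members differed: S100a4 was higher (7448 and 6779 against 1471 and 1570) and Dcn, encoding decorin, lower (37.1 and 17.8 against 169.9 and 169). Of 10 mesothelial markers 8 were lower in C3S (median -3.38) and 0 higher by edgeR or DESeq2, with 2 higher at an unadjusted p under 0.05, and their sum was 3715 to 3839 in C3S and 16850 to 17090 in WT. Wt1, the Wilms tumour factor that marks mesothelium, had 2615 and 2602 in WT and 148 and 123 in C3S. The uroplakin Upk1b had 6306 and 6148 in WT against 281 and 273 in C3S, and its relative Upk3b 2970 and 2929 against 181 and 183. These groups did not overlap, which held for all but 1 of the 1438 genes called lower. Msln and Krt19, also on the list, were not called and stood at 0.75 and 0.40.

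Epithelial markers were lower for 10 of 15 and higher for 2 (median -2.42), with sums of 3015 to 3098 in C3S and 7264 to 7566 in WT. The keratins of the mesothelial list, among them Krt8 and Krt19, were also on this list. Esrp2, an epithelial splicing regulator, had 277 and 275 in WT and 12 and 16.7 in C3S, Krt8 172 and 155 against 16.4 and 16, and Cdh1, encoding E-cadherin, 149 and 148 against 19.7 and 23.4. The germ cell helicase Ddx4 was present in WT at 534 and 493 and nearly absent in C3S at 6.55 and 11.1. Leukocyte markers were low throughout, 277 to 294 in C3S and 526 to 536 in WT, and 2 of 24 had no counts in any H2O2 library. Of the 9 leukocyte markers tested 4 were lower, of 11 neural and glial markers 1 was higher and 3 lower, of 8 skeletal muscle markers 1 was higher and 2 lower, and of 4 endothelial markers 1, the receptor Kdr (1.23), was higher. Xist, the RNA of the inactive X, was counted at 963 and 1111 in WT and 445 and 402 in C3S, and the Y-linked gene Ddx3y at 2587 and 2725 in WT and 3263 and 3298 in C3S, so every H2O2 library held transcripts of both kinds. Whether any of these markers had a part in the other differences was not tested. Before peroxide the median was -3.91 for mesothelial and -2.35 for epithelial markers.

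**Figure D2:**
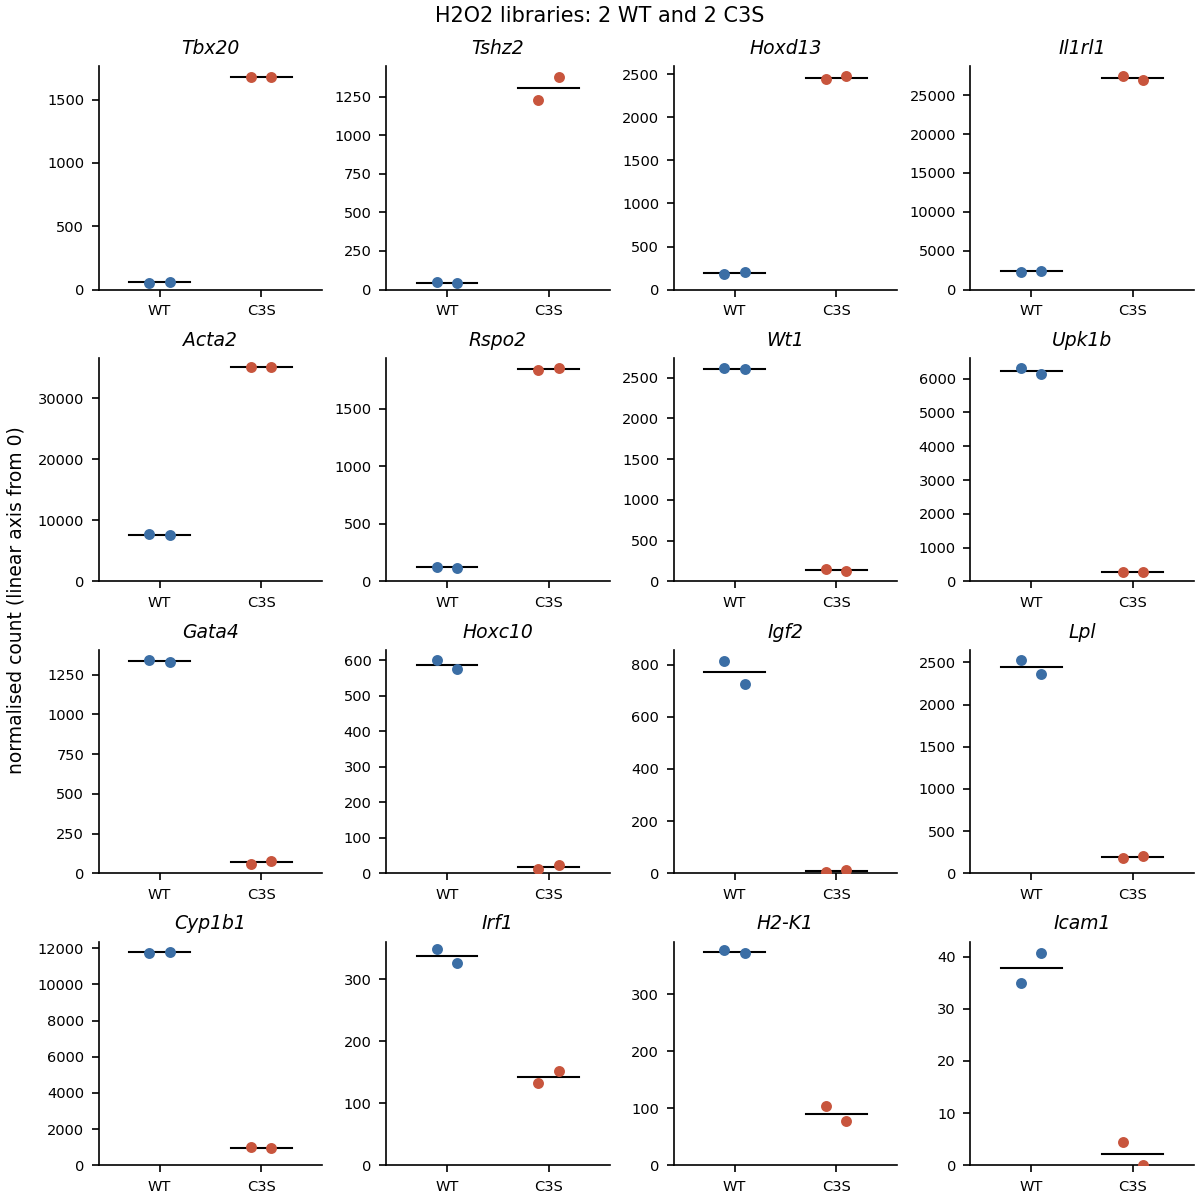
Normalised counts in the 4 H2O2 libraries for 16 genes, on linear axes from 0; blue points are WT libraries, red points C3S libraries, and the line is the mean of 2. In no panel do the lines overlap, from Tbx20 (1679 and 1681 in C3S) to Wt1 (148 and 123 in C3S). Among all called genes, the groups overlapped for 1 of 1053 higher and 1 of 1438 lower.

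Interferon-stimulated genes, which serve antiviral defence, were lower in C3S cells for 22 of the 40 tested and higher for 4 (median -1.07). Xaf1, a pro-apoptotic interferon target, had 114 and 117 in WT and 14.7 and 11 in C3S, and Ddx58, encoding the RNA sensor RIG-I, 456 and 477 against 126 and 137. Parp9 and Samd9l, of the same response, differed by -2.02 and -1.89 on the log2 scale. Of 16 genes of MHC class I presentation 8 were lower (median -1.07) and 0 higher by edgeR or DESeq2, with 1 higher at an unadjusted p under 0.05. The lower members included the peptide transporter Tap2 (49.5 and 67.2 against 3.41 and 4.44) and H2-K1 (377 and 373 against 104 and 76.7). H2-K1 and H2-D1 are near copies, so reads may have been split between them. Over NF-kB genes and chemokines 11 of 32 were lower and 2 higher (40.6% called). The shares called were 65.0% for the interferon-stimulated and 50.0% for the MHC class I genes, beside 18.5% of all genes. Cxcl12, the stromal chemokine, had 9632 and 9963 in WT and 2023 and 1989 in C3S, and Ccl2 650.1 and 646 against 166 and 158. Cd274, encoding the checkpoint ligand PD-L1, differed by -1.80. Before peroxide 18, 8 and 11 members of these 3 lists were lower, and Ccl7 was their only member to pass the interaction.

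Icam1, the adhesion molecule for leukocyte integrins, was low but divided the lines, with 34.9 and 40.8 in WT and 4.37 and 0 in C3S. From 93 counts against 4 the ratio was 17.2 (95% counting interval 6.48 to 64.3). Irf1, an interferon regulatory factor, had 349 and 327 in WT and 133 and 152 in C3S (-1.24 ± 0.12). Their promoters are shown because each holds a palindrome of the kind Stat factors bind, as the 250 bases before the RefSeq start on GRCm38, 5′ to 3′, at chr9:21015690-21015939 and chr11:53769764-53770013, both on the plus strand. Capitals mark the match, TTCCNGGAA in Icam1 at 42 to 34 bases before the start and the looser TTCNNNGAA in Irf1 at 90 to 82.
Icam1: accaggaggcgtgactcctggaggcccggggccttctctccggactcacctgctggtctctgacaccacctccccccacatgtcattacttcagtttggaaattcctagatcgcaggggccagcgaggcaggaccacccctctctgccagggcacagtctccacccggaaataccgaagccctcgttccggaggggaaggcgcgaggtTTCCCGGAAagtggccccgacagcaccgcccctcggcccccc
Irf1: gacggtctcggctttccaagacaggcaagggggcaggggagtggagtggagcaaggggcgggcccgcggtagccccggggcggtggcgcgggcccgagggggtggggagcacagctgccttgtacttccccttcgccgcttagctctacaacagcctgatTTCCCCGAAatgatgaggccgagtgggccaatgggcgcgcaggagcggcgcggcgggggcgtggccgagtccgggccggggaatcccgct
Searched on both strands, TTCCNGGAA was in 0.913% of 32851 mouse promoters of this length and TTCNNNGAA, which includes it, in 7.02%. Of the tested genes that had a promoter in the table, TTCCNGGAA was in 23 of the 1036 lower in C3S (2.22%), in 8 of the 734 higher (1.09%) and in 121 of all 9991 (1.21%). Among 31 interferon-stimulated genes with a promoter it was in 5. A match describes letters and does not show that a factor bound there. Irf1 was named, and these promoters were picked, after the values and matches were seen.

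Contractile genes leaned to the higher side. Of 28 tested, 9 were higher in C3S and 1 lower (35.7%, beside 18.5% of all genes), with a median of 0.71. Before peroxide 7 were higher and 2 lower (median 0.65), and none passed the interaction. Acta2, the smooth muscle actin of myofibroblasts, had 35225 and 35098 in C3S and 7731 and 7538 in WT, and differed by 1.73 before peroxide. Myl9, a myosin light chain, had 4944 and 4480 against 618 and 524 (3.04 ± 0.062), and Lmod1, an actin nucleator of smooth muscle, 201 and 193 against 29.4 and 25. The member that was lower was Des, the muscle intermediate filament desmin, with 3.28 and 1.11 against 87.3 and 78.9. Contractile genes are known targets of Srf, which binds the CArG box, and the promoter of Myl9 (chr2:156775214-156775463, plus strand, the 250 bases before the start) is shown with its match in capitals, 161 to 152 bases before the start.
Myl9: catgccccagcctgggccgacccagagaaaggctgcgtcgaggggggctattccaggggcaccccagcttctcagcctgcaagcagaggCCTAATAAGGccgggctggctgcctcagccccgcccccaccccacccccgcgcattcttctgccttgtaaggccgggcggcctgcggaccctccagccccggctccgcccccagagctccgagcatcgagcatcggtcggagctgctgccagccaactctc
The CArG box, searched on both strands, was in 1.47% of all promoters of this length, in 4 of 24 contractile genes with a promoter, in 28 of 734 genes higher in C3S (3.81%) and in 17 of 1036 genes lower (1.64%). Acta2 held no strict match in this window.

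Matrix genes differed in both directions. Of 28 collagens 5 were higher and 6 lower (39.3%, beside 18.5% of all genes), from 4 and 8 before peroxide. Of 42 other matrix proteins 12 were higher and 9 lower (50.0%), as before peroxide. Col8a1 had 5607 and 5677 in C3S against 1526 and 1491 in WT and Col18a1 1620 and 1637 against 169 and 129.9, whereas Col11a1, a fibrillar chain of cartilage, had 358 and 304 against 1402 and 1421. Of 45 matrix proteases and inhibitors 17 were lower and 7 higher (53.3%), from 15 and 7 before peroxide. The list's median was nevertheless 0.095, and the adjusted p alone gave 18 higher and 21 lower. The lower members were led by Mmp23 (-5.12) and Mmp2 (-3.42), the gelatinase, while Adam8 was higher (2.95). Mfap5, a microfibril protein, had 168 and 178 against 7.14 and 7.5, and the elastin cross-linking enzyme Loxl1 3002 and 3209 against 679 and 705. Of 27 integrins and laminins 7 were higher, led by the laminin receptor chain Itga6 with 8154 and 8588 against 1215 and 1266, and 3 lower. The share called was 37.0%, and before peroxide 5 were higher and 4 lower. Of 26 Yap targets 5 were higher and 2 lower (26.9%, beside 18.5% of all genes), the latter including Ankrd1 (-3.39). Lpl, the lipoprotein lipase, was among the deep losses at 180.4 and 207 against 2531 and 2366, and so was the cholesterol exporter Abca1 at 47 and 47.8 against 545 and 516. Of 16 adipogenic genes, among them Lpl, 2 were higher and 3 lower (31.2%), and of 35 genes of cholesterol and fatty acid synthesis, among them Abca1, 2 were higher and 1 lower (8.57%), beside 18.5% of all genes. Of 22 imprinted genes 9 were lower and 3 higher (54.5%). Peg3, like Igf2 expressed from the paternal allele, had 297 and 287 against 2674 and 2723, and H19, the maternally expressed neighbour of Igf2, 207 and 186 against 55.6 and 80.8.

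**Figure D3:**
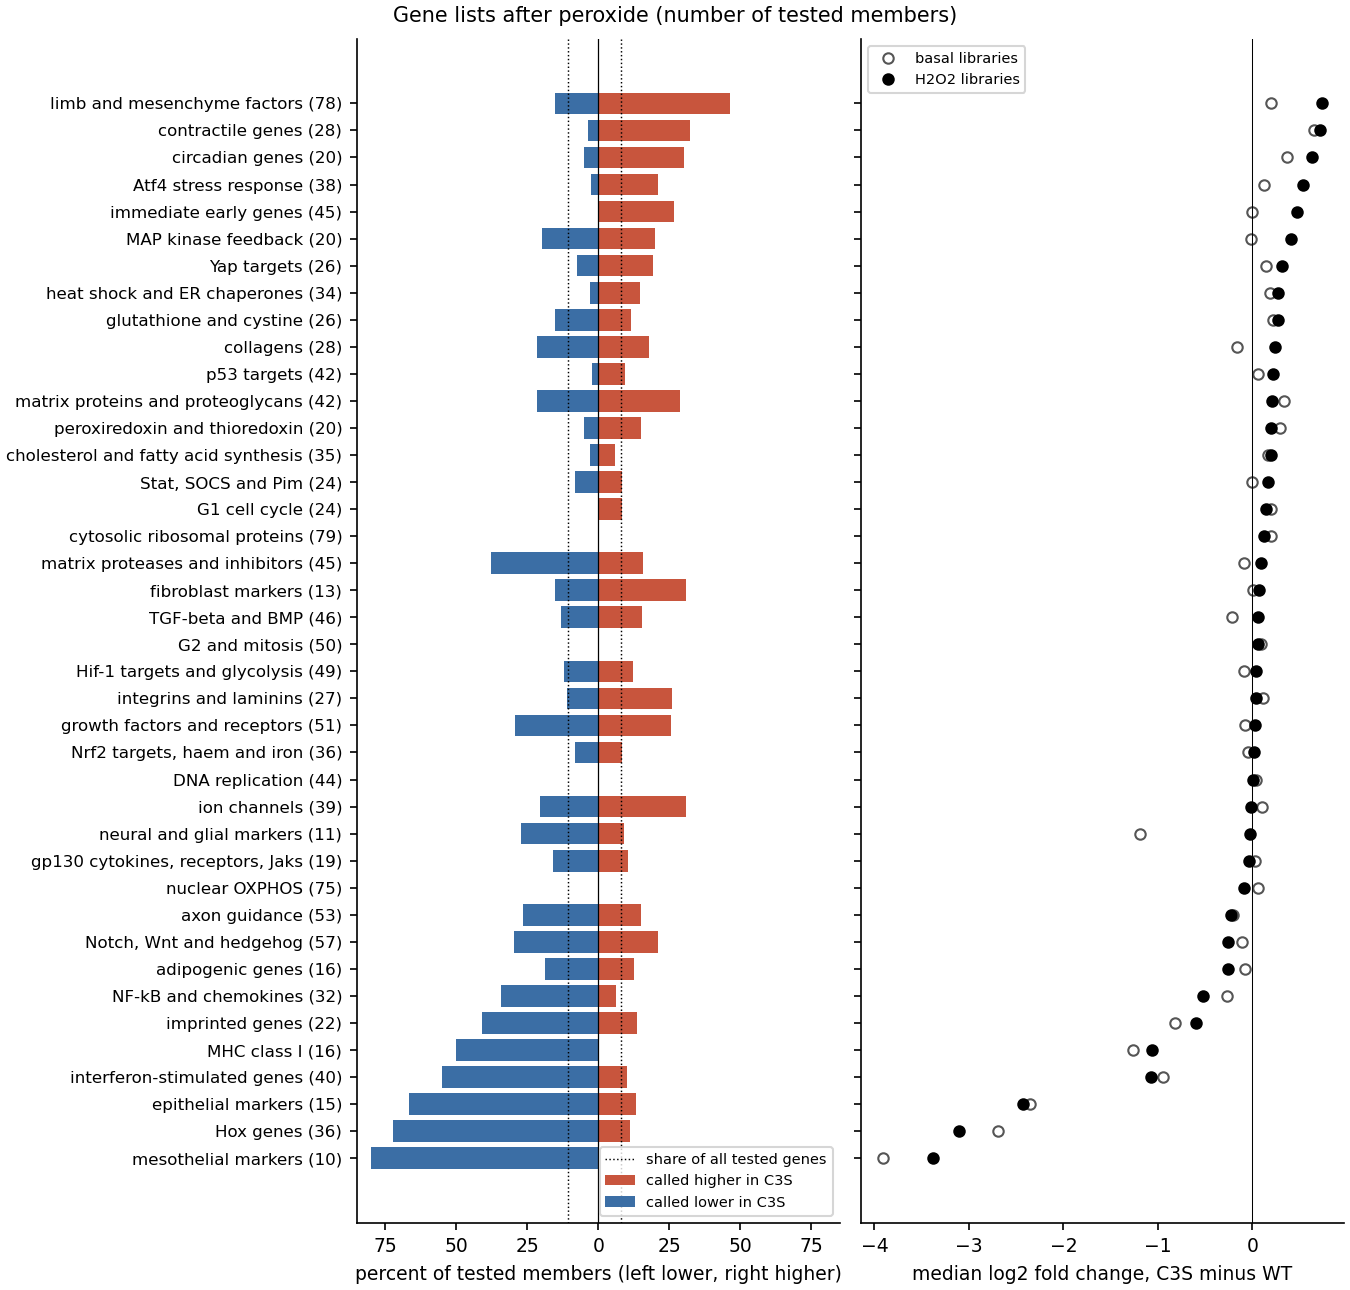
Left, percent of the tested members of each gene list (10 or more tested) called higher (red, right) or lower (blue, left) in C3S after H2O2, with dotted lines at 7.83% and 10.7%, the shares of all 13455 genes; right, the list's median log2 fold change in the H2O2 (filled) and basal (open) libraries. Mesothelial markers and Hox genes lie lowest (-3.38 and -3.10) in both conditions, and the immediate early genes move from 0 to 0.47.

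A smaller set of genes differed after peroxide by an amount that the basal libraries did not show. Slc7a11, which brings in cystine for the synthesis of glutathione, had 1367 and 1352 normalised counts in C3S and 395 and 410.0 in WT after H2O2 (1.76 ± 0.067), while the basal difference was 0.029. The interaction was 1.73 ± 0.13 (adjusted p = 7.0e-12). Sesn2, a stress-induced inhibitor of mTORC1 signalling, had 1876 and 1849 against 675 and 695 and an interaction of 1.38, and the growth arrest gene Gadd45a 509 and 498 against 144 and 179 and 1.45. Before peroxide the lines overlapped for Slc7a11 and Gadd45a, and for Sesn2 they stood at 351 and 377 in WT and 378 and 382 in C3S. Slc7a11 and Sesn2 belong to the Atf4 response to amino acid shortage. Of its 38 genes 8 were higher in C3S and 1 lower (23.7%, beside 18.5% of all genes). Their median was 0.53, from 0.12 before peroxide, and 6 passed the interaction, all upward. Other members were Vldlr, the VLDL receptor (2.41), Stc2, stanniocalcin (2.64), and Nupr1, a stress-induced chromatin factor (1.49), with basal differences of 1.28, 2.13 and 0.81, the last of them not called.

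The promoter of Slc7a11 is shown because it holds the letters of the composite element known for Atf4 and C/EBP factors, in 2 facing copies (chr3:50443614-50443863, minus strand, the 250 bases before the start). Capitals mark TGATGCAA, 66 to 59 bases before the start, and its reverse complement at 47 to 40.
Slc7a11: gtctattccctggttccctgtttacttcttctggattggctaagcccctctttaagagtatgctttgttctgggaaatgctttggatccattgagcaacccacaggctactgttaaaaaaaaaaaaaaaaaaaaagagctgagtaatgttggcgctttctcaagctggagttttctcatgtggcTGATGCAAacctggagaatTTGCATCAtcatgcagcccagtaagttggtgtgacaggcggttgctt
TGATGCAA, searched on both strands, was in 0.791% of all promoters of this length and in 0.711% of those of tested genes. It was in 8 of the 32 Atf4 list genes with a promoter, a list drawn up from known Atf4 targets, and in 5 of the 94 genes with a positive interaction (5.32%). These sets share members that hold the motif, among them Slc7a11 and Vldlr, so the shares are not separate evidence. The motif was also added after the values were seen. TGATGCAA was in 9 of 734 genes higher in C3S (1.23%) and 12 of 1036 lower (1.16%).

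The immediate early genes, which growth factor and stress signalling switch on within minutes, leaned the same way. Of 45 tested, 12 were higher in C3S after H2O2 (median 0.47, from 0.00 before) and 0 lower by edgeR or DESeq2, with 10 lower at an unadjusted p under 0.05. The share called was 26.7%, beside 18.5% of all genes. The interaction passed for 6 upward and, with Jun (-1.03) and Egr1 (-1.02), 2 downward. Fosb, an AP-1 subunit, had 2699 and 2818 in C3S and 991 and 1024 in WT, against basal levels of 1439 and 1492 in C3S and 1868 and 1749 in WT, an interaction of 1.76 ± 0.075 (adjusted p = 4.5e-18). Nr4a1, an orphan nuclear receptor, had 3113 and 2997 against 1447 and 1394, and its interaction was 1.48. Nr4a1, Jun and Egr1 were named after their values were seen. Other members were higher in C3S in both conditions: Ptgs2, the inducible cyclooxygenase, had 16165 and 15187 against 3220 and 3451 and differed by 1.74 before, and Arc had 1065 and 1132 against 209 and 234 and 1.98 before.

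Of 20 feedback genes of MAP kinase signalling 4 were higher and 4 lower (40.0%, beside 18.5% of all genes). Dusp6, the phosphatase that acts on Erk, had 869.7 and 781 in C3S and 3096 and 3158 in WT, Dusp4 346 and 338 against 1928 and 1978, and the receptor kinase inhibitor Spry1 15.3 and 13.3 against 121 and 124. Dusp10, which acts on the stress kinases, was the reverse with 863 and 868 against 272 and 279 and an interaction of 1.16. The difference in Dusp4 was less deep after peroxide (-2.51) than before (-3.59), with an interaction of 1.08, and that in Spry1 deeper (-1.07).

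Of the Stat, SOCS and Pim genes 2 of 24 were higher and 2 lower after H2O2 (16.7%, beside 18.5% of all genes). Socs3 was not among them, with 310.1 and 313 in C3S and 277 and 248 in WT (0.25 ± 0.11, adjusted p = 0.0437). It was lower in C3S before peroxide, 333 and 309.6 against 917 and 818, so that the line difference changed by 1.68 ± 0.13 (adjusted p = 3.1e-11). Pim1, a kinase induced by Stat signalling, moved likewise from -0.28 to 1.19, with 1122 and 1123 against 518 and 466 after H2O2. Socs2, a target of Stat5, had 443 and 476 against 143 and 117 and differed by 1.45 before, and Ptpn6, the phosphatase SHP-1, had 36 and 31.1 against 97.6 and 80.8. A list of 19 tested cytokines, receptors and Jak kinases held gp130 family genes and others of the interleukin-10, interleukin-17 and interleukin-33 systems. Of this list 26.3% were called, beside 18.5% of all genes. Its 2 higher members were the gp130 cytokine Il11 (1.24) and Il1rl1. Its 3 lower members were Osmr (-1.01), the oncostatin M receptor, which came to -0.86 without C3S library 1, Il17f and Il33 (-3.30), the ligand of Il1rl1, which was named after its values were seen. The study listed 925 gene names near Stat3 binding peaks after the gp130 cytokine LIF, of which 562 were matched to a row and 483 tested. Of the 483, 71 were higher and 37 lower, 22.4% beside the 18.5% of all genes, with a median of 0.22. Of all genes 7.83% were higher and 10.7% lower. Before peroxide 47 genes near these peaks were higher and 37 lower (median 0.16).

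In the lists of peroxide removal and redox balance the share called was 16.7% to 26.9%, beside 18.5% of all genes. Of 20 peroxiredoxin and thioredoxin genes 3 were higher and 1 lower (20.0% in all). The lower gene, Txnip, an inhibitor of thioredoxin, had 144 and 127 in C3S and 838 and 876 in WT (-2.66 ± 0.097), and it was wider apart than before peroxide (interaction -1.42). Srxn1, which repairs hyperoxidised peroxiredoxin, had 1981 and 2027 against 925 and 901, and glutaredoxin, Glrx, 689 and 729 against 223 and 298. Prdx2, the peroxiredoxin linked to Stat3 oxidation, was not called, with 2476 and 2326 against 2888 and 2970 (-0.29 ± 0.044). Of 36 Nrf2, haem and iron genes 3 were higher and 3 lower, with a median of 0.02. Of 26 glutathione and cystine genes 3 were higher and 4 lower, the latter including the transferases Mgst1 (10.9 and 11.1 against 325 and 339.8), Gstm2 (-2.66) and Gsta4 (-2.08), with basal differences of -4.64, -2.57 and -1.64. Mt2, a metallothionein of metal and oxidant stress, had 554 and 409 against 192 and 226 and an interaction of 1.86, but its excess dropped to 0.97, under 2-fold, without C3S library 1.

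Of 42 p53 targets 4 were higher and 1 lower (11.9%, beside 18.5% of all genes), and Trp53 itself differed by -0.33. Of 49 Hif-1 targets and glycolysis genes 6 were higher and 6 lower (24.5%). The lactate exporter Slc16a3 had 105 and 78.9 against 1334 and 1209, and Hif1a was not called (0.36 ± 0.039). Of 20 circadian genes 6 were higher and 1 lower (35.0%), with a median of 0.63, from 0.37 before. Nr1d1, the repressor Rev-erb alpha, had 1125 and 1126 against 342 and 287 and an interaction of 1.06, and Per3 had 221 and 201 against 79 and 66.8. Reads of Nr1d1 may include those of Thra, which overlaps it on the opposite strand.

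Genes whose interaction was negative were fewer. Hspa1a, an inducible Hsp70, had 511 and 548 in C3S and 1118 and 1169 in WT after H2O2, against basal levels of 184 and 191 in C3S and 177 and 98.6 in WT, an interaction of -1.55 ± 0.22. Its neighbour Hspa1b is nearly identical, so the reads of Hspa1a are uncertain. In the whole list of heat shock genes and chaperones 5 of 34 were higher and 1, Hspa1a, lower (17.6%, beside 18.5% of all genes). Hilpda, a lipid droplet protein induced by Hif-1, had 228 and 216 against 505 and 514 from near-equal basal levels (0.074). Sfrp2, a secreted Wnt antagonist, had 672 and 584 against 1408 and 1357, with 1356 and 1310 against 1308 and 1254 before. The chemokine Ccl7 had 81.9 and 53.3 against 159 and 165, which came to -0.98, under 2-fold, without C3S library 2. On the positive side, the matrix protein Edil3 had 126 and 139 against 34.9 and 32.5 and Vat1l 120.1 and 104 against 19.1 and 24.2. Pdgfrb, the PDGF receptor beta, differed by 0.76 before and 1.63 after, and its interaction did not reach 2-fold (0.87). Dnm3os at chr1:162217623-162225550 lies antisense within Dnm3 and was 135 and 134 against 42.8 and 53.6, and whether counting used the strand is not given in the sources used here.

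**Figure D4:**
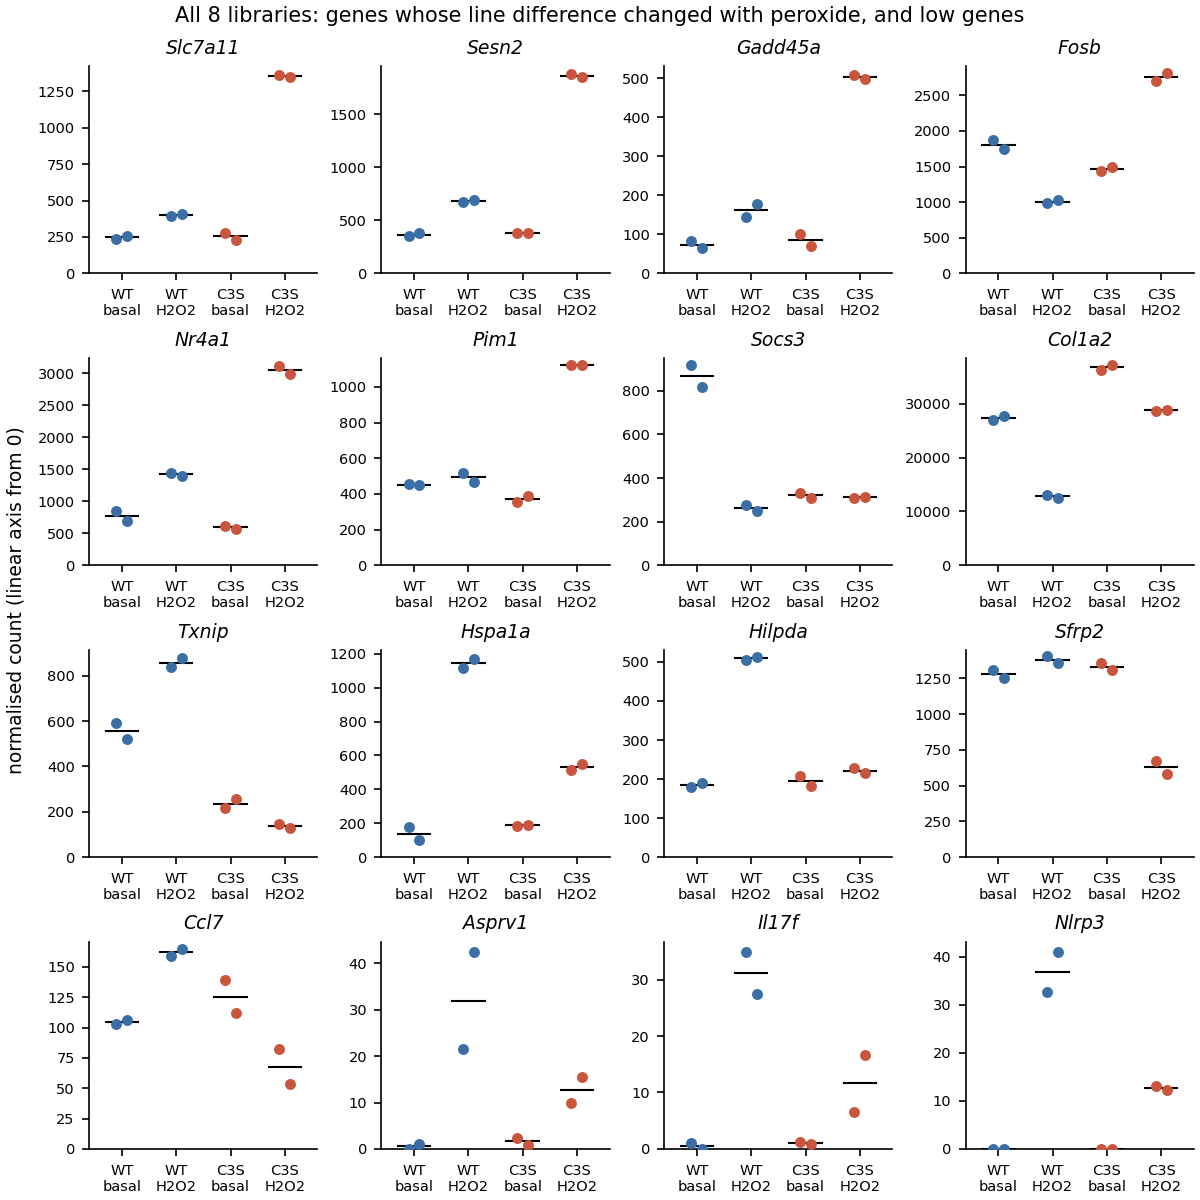
Normalised counts of 16 genes in all 8 libraries on linear axes from 0, by line (blue WT, red C3S) and condition (basal or 2 h in H2O2); points are libraries and lines are means of 2. Slc7a11, Sesn2, Gadd45a and Pim1 are close between the lines before H2O2 and higher in C3S after it. Asprv1, Il17f and Nlrp3 lie near 0 before it and higher in WT after it, but did not pass the interaction.

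Another set of genes was at or near 0 in the basal libraries and counted after H2O2. Nlrp3, the inflammasome sensor, had 32.5 and 41 in WT against 13.1 and 12.2 in C3S after no counts in any basal library. Il17f, the cytokine interleukin-17F, had 34.9 and 27.4 in WT and 6.55 and 16.7 in C3S. Asprv1, a skin protease, had 21.4 and 42.5 against 9.83 and 15.6, and Aplnr, the apelin receptor, 14.3 and 12.5 against 4.37 and 2.22. All 4 were without overlap between the lines, which held for all but 1 of the 1438 genes called lower. None of the 4 passed the interaction of edgeR, with adjusted p of 0.47 for Il17f, 0.32 for Asprv1 and 0.38 for Aplnr. The study picked these 4 genes on the same libraries, so their direction here is no independent evidence. By qRT-PCR after a shorter exposure to peroxide, the study reported less induction of Il17f, Asprv1 and Aplnr in C3S than in WT cells. It did not name Nlrp3 among the genes assayed that way. The calls of Il17f, Asprv1 and Aplnr were fragile: with DESeq2 their adjusted p were 0.0558, 0.0723 and 0.0954, and leaving out either of 2 libraries ended each, with Il17f at -1.24 without WT library 1 and -0.90 without C3S library 1, Asprv1 at -0.75 without WT library 2 and -1.03 without C3S library 1, and Aplnr at -1.88 without WT library 1 and -1.59 without C3S library 2.

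Rows that were silent before peroxide were also summed as a whole. Over 3855 rows with a mean normalised count under 1 in both basal groups, the summed level was 333 to 694 in the basal libraries, 5321 and 5624 in the C3S libraries and 6675 and 6964 in the WT libraries after H2O2. They made up 0.0267% to 0.0394% of all counts in the H2O2 libraries. The rows were picked by low basal counts, so the low basal sums were in part set by that choice. Whether the rise of silent rows as a whole had a part in the values of Nlrp3, Il17f, Asprv1 and Aplnr was not tested.

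Lists of cell division and housekeeping, apart from G1 genes, gave no calls. None was called by edgeR or DESeq2 among 44 of DNA replication, 50 of G2 and mitosis, 75 nuclear genes of oxidative phosphorylation and 79 cytosolic ribosomal proteins, where 17, 22, 18 and 51 were higher and 15, 13, 31 and 16 lower at an unadjusted p of edgeR under 0.05. The widest differences in these lists, picked out after they were seen, were those of Anln (0.99) and Rpl30 (0.74). Ndufs6 and Sdhb, subunits of respiratory complexes, differed by -0.35 ± 0.099 and 0.088 ± 0.059. Of 39 ion channel genes 12 were higher and 8 lower (51.3%, beside 18.5% of all genes). Of 24 G1 genes 0 were lower by edgeR or DESeq2, with 3 lower at an unadjusted p under 0.05, and 2 were higher, Ccnd1, encoding cyclin D1, with 8591 and 9039 against 2806 and 2603, and the inhibitor Cdkn1a with 3609 and 3631 against 1705 and 1692. The share of G1 genes called was 8.33%, beside 18.5% of all genes.

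Whole chromosomes differed slightly between the lines. Over the 13296 genes that had a place in the annotation, the median log2 difference after H2O2 was 0.40 on chromosome 12 (454 genes) and 0.33 on chromosome 10 (663 genes), and -0.28 on chromosome 11 (1098 genes), -0.29 on chromosome 6 (654 genes) and -0.26 on chromosome 5 (836 genes). The basal libraries gave 0.30, 0.26, -0.25, -0.26 and -0.19 for the same chromosomes. Subtracting each chromosome's median left 1014 genes higher and 1403 lower, a choice made after seeing the data. Among genes named above it brought Hsp90b1 to 0.81, Hilpda to -0.91 and Ccl7 to -0.97, all under 2-fold. What set these medians was not tested.

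**Figure D5:**
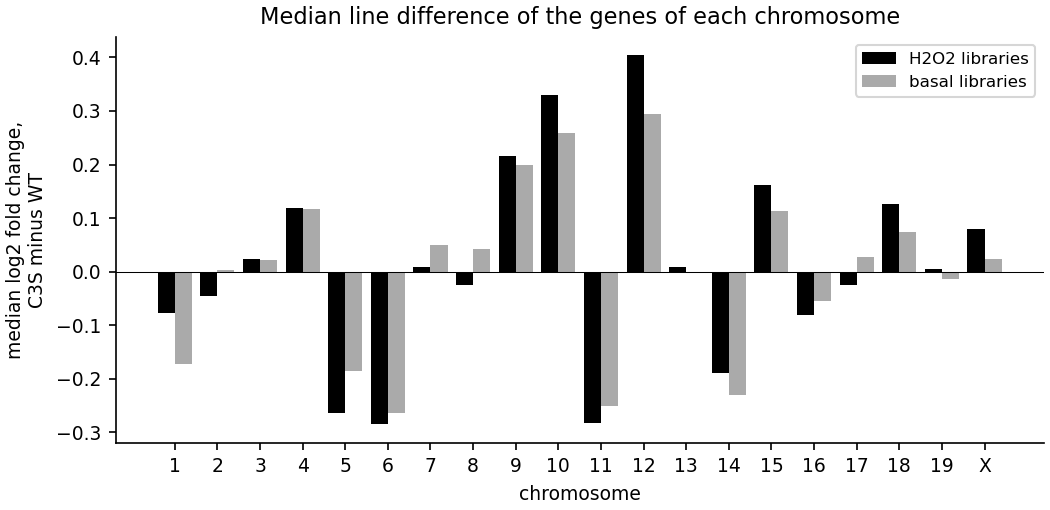
Median log2 fold change, C3S minus WT, of the tested genes of each chromosome but Y in the H2O2 libraries (black) and the basal libraries (grey). Chromosomes 12 and 10 lie highest, at 0.40 and 0.33 after H2O2, and chromosomes 6, 11 and 5 lowest.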

How the data were processed

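RNA was measured in 8 libraries of RNA from the -/-WT and -/-C3S lines, 2 per line and condition, as single-end 50-base reads of a directional kit. Per the study's methods, reads were trimmed with Scythe and Sickle, aligned to mm10 with TopHat2 (version 2.0.10 per the submitters' processing notes), and uniquely mapped reads over exons were counted. Neither the counting program nor its strand setting was given in the sources used here. The deposited values used here are the authors' expected counts, of which 58.4% of those above 0 were whole (within 1e-09). They were rounded for the tests. A second deposited table of signal values, which the authors made by dividing these counts by size factors, served only to check the scaling. A further 24 columns, group means and SDs with headings repeated beside them, were not used. The count table holds 27 rows with a number for a name (0.28% of counts), of which 20 were tested.

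Size factors were medians of ratios over the 8 libraries, equal to the deposited ones within 5.39e-10 (log2). Genes with a mean expected count of 10 in at least 1 of the groups compared were tested with edgeR 4.0.16 (R 4.3.3) by its robust quasi-likelihood test, with Benjamini-Hochberg adjustment over all genes, on the 4 H2O2 libraries, on the 4 basal libraries, and on all 8 for the interaction. The SE is the size of the log2 fold change over the root of F. Libraries of the same group differed beyond counting noise (chi-square per gene 2.48 to 3.81), so each counted as 1 sample. Fold changes against a group with no counts use a floor of 3 counts over the group.

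Gene places are those of GENCODE on GRCm38, and promoters are RefSeq sequences of GRCm38.p6, matched by symbol for 9991 of the 13455 tested genes. CArG, TGATGCAA and TTCNNNGAA were added to the motifs after the values were seen.

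The comparison, the gene lists and the motifs were chosen with earlier results of these data known. Genes were named by rule: Stat3; the 8 largest called changes in each direction with a mean of 100; the 6 largest called interactions in each direction among genes not called at baseline; up to 4 called members of each list with a mean of 50; the 4 most abundant called genes in each direction; and genes the study discusses. The 8 largest changes in each direction were taken only among genes without overlap between the groups. Alternatives were TMM scaling, DESeq2 1.42.0, no filter, the adjusted p alone, glmTreat, a fit of all 8 libraries, a replicate block, leaving out each library, and subtracting chromosome medians. Some results on single genes are not reported here.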

Additional observations from a re-analysis of the deposited data

Results flagged for a closer look

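The results here were picked because the difference between the lines was not the same in the basal and the H2O2 libraries by the interaction test of edgeR (adjusted p under 0.05 and at least 2-fold). This held upward for 135 genes and downward for 55, and all values below are log2 interactions, C3S minus WT after H2O2 less the same before. No explanation was tested for any of them.

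Among stress genes the interaction was 1.73 for Slc7a11, 1.38 for Sesn2, 1.45 for Gadd45a, 1.13 for Vldlr and 1.86 for Mt2. Among genes of early signalling it was 1.76 for Fosb, 1.47 for Pim1, 1.68 for Socs3, 1.16 for Dusp10, 1.08 for Dusp4 and -1.07 for Spry1. Further positive values were 2.03 for Dnm3os, 1.87 for Edil3, 1.64 for Vat1l, 1.89 for Ralyl and 1.06 for the clock repressor Nr1d1. Negative values were -1.55 for Hspa1a, -1.51 for Ccl7, -1.42 for Txnip, -1.27 for Hilpda, -1.20 for Enthd2, -1.19 for Sfrp2, -1.07 for Smco1 and -1.59 for Igf2. The fitted value of the axon guidance receptor Robo2, -3.35, rests on 1 count in the C3S libraries after H2O2 and depends on the prior count of the fit.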

How the results depend on the processing

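Over the 182 named genes, 148 kept their call or lack of one under every alternative. The calls after H2O2 were 1053 higher and 1438 lower, and they stayed within 1.5 times of that with TMM, DESeq2, no filter, a fit of all 8 libraries, the replicate block (1050 and 1438) and chromosome medians subtracted. By the adjusted p alone they were 4392 and 4315. With glmTreat, which tests against 2-fold, they were 722 and 860. Leaving out 1 library each gave 975 to 1043 higher and 1263 to 1394 lower. In the basal comparison the counts were 3859 and 3885 by the adjusted p alone, 813 and 1234 with the replicate block, and 781 to 829 and 1167 to 1222 with 1 library left out. The interaction gave 88 and 30 with DESeq2, 1243 and 454 by the adjusted p alone, 148 and 65 with the replicate block, and 114 to 137 and 47 to 71 with 1 library left out. The numbers did not pair the samples, since deviations of same-numbered libraries correlated at -0.009 to 0.030. Subtracting chromosome medians turned the uncalled differences of Hif1a to -0.048 and of Sdhb to -0.030. The cause was not tested where counts moved, except that glmTreat and the adjusted p alone are stricter and looser limits by construction.

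With 2 libraries of 1 line per group, genes of low counts were weakly measured: Il17f, Asprv1 and Aplnr lost their calls with DESeq2. Genes of mean count under 10 in both groups, 5586 rows, were not tested.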
